A study of Saccharomyces cerevisiae with 7 samples.

Results

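Oxidative phosphorylation in *Saccharomyces cerevisiae* depends on protein complexes of the inner mitochondrial membrane whose subunits come mostly from nuclear genes. The 35 genes described here are the nuclear genes for 12 subunits of ATP synthase, 8 of cytochrome c oxidase, 9 of the bc1 complex and 4 of succinate dehydrogenase, with the 2 cytochrome c genes. They were chosen by name from the 6550 genes of the deposited mRNA-seq table, and all of them are listed in it. RNAs bound by 5 Puf proteins had been measured by CLIP, in which RNA is crosslinked to a tagged protein and recovered with it. Of 10580 called sites in the 5 libraries, 53 carried the name of one of these genes. They fell in 24 of the 35 genes, and 11 genes had no site in any library.

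The CLIP strains were MATa his3Δ1 leu2Δ0 met15Δ0 ura3Δ0 and each carried a single TAP-tagged gene, PUF1-TAP::HIS5, PUF2-TAP::HIS5, PUF4-TAP::HIS5, PUF5-TAP::HIS5 or PUF6-TAP::HIS5. Per the labels' protocols, cells grew at 30 °C in synthetic defined medium with 200 µM 4-thiouracil where used, and received 365 nm ultraviolet light in 4 doses, each of 150 mJ/cm2. Each protein had 1 library, so no value has a replicate check, and no untagged library was used here. The mRNA level came from 2 samples of BY4742 puf3Δ::KAN, given by the authors as 1 joined column of RPKM (reads per kilobase, scaled to sequencing depth), from polyA RNA of ribosome-depleted extract. Its protocol fields describe ultraviolet light in one place and none in another. This strain lacks PUF3, and no such deletion is listed for the CLIP strains. A difference in mRNA level between the strains was not tested.

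Electrons from succinate dehydrogenase and from other dehydrogenases reach ubiquinone, pass through the bc1 complex to cytochrome c, and are handed to oxygen by cytochrome c oxidase. The resulting proton gradient drives ATP synthase. A few central subunits of these complexes are encoded in mitochondrial DNA. Puf proteins are cytoplasmic or nuclear RNA-binding proteins that recognise short elements, often in 3' UTRs, and many of them change the translation, decay or localisation of the mRNA. In yeast, Puf3 is the family member known for binding mRNAs of mitochondrial proteins. No Puf3 library was used here, and whether Puf3 binds the mRNAs described here was not tested. The libraries show only where sites of other Puf proteins were called in them.

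RPM, the authors' measure of a site, is its reads scaled to a fixed library size. Below 200 RPM, where steps were searched, most mRNA sites lay on whole multiples of a small step, which is taken as the value of 1 read. The step was 0.1674 RPM for Puf1 and 0.1641 RPM for Puf2, 0.1224 RPM for Puf4, 0.1954 RPM for Puf5, and 0.1522 RPM for Puf6. Between 78.8% (Puf4) and 86.9% (Puf6) of mRNA sites under 200 RPM fell within 0.0055 RPM of such a multiple, against 5.63% to 8.99% if values were evenly spread. Of the 37 member sites below 200 RPM, 33 lay on a multiple. Dividing RPM by the step put the 53 sites at about 12 to 46335 reads with a median of about 766, where 11 sites were not on a multiple, among them all 4 Puf1 sites and the one with the most reads. Intervals made from these reads cover counting error only, since PCR copies are not independent molecules.

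The genes were abundant as mRNAs. Their median level was 408 RPKM, against 60.4 RPKM over 5521 protein-coding genes with at least 1 RPKM, which serve as the background. Of the 35 genes, 21 were in the upper 10% of the background. ATP2, the catalytic beta subunit of ATP synthase, was highest with 1920 RPKM, followed by the alpha subunit gene ATP1 with 1181 RPKM. CYC7, the cytochrome c isoform made chiefly when oxygen is low, was the only one under 100 RPKM, with 23.9 RPKM. The next lowest was QCR9, a small bc1 subunit, with 131 RPKM. By complex, median levels were 652 RPKM for ATP synthase, 465 RPKM for the bc1 complex, 374 RPKM for cytochrome c oxidase and 227 RPKM for succinate dehydrogenase. From start to stop codon, introns included, the genes were short, with a median of 447 nt against 1240 nt in the background, and 24 of the 35 were at most 600 nt.

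The mitochondrially encoded partners could not be followed in the same way. COX1, COX2, COX3, COB, ATP6, ATP8 and OLI1 were listed at 0.12 to 6.05 RPKM in the polyA RNA, and none of the 10580 sites lay outside the 16 nuclear chromosomes.

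The first question was how many of the genes each protein bound. A gene was called bound when the authors had assigned it at least 1 site within its transcript. Puf5 had sites in 14 of the 35 genes (40.0%, exact 95% interval 23.9 to 57.9), against 25.0% of the background. In Puf4 there were 11 (31.4%, 16.9 to 49.3), against 19.7% of the background. Puf2 had 6 (17.1%, 6.56 to 33.6), against 11.7%. Puf1 had 4 (11.4%, 3.2 to 26.7), against 5.81%. Puf6 had a single one, COX7 (2.86%, 0.0723 to 14.9), against 6.34%. Each of these 5 background shares lay inside the members' interval, so with 35 genes none of the 5 shares stood apart from the background. The order of the proteins depended on list length: with only the 899 strongest sites of each library, Puf4 had sites in 6 genes, Puf2 in 5, Puf5 and Puf1 in 4 each and Puf6 in 1. With any of the 5 proteins, 24 of 35 (68.6%, 50.7 to 83.1) had a site, against 42.1% of the background, which is below the interval.

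**Figure D1:**
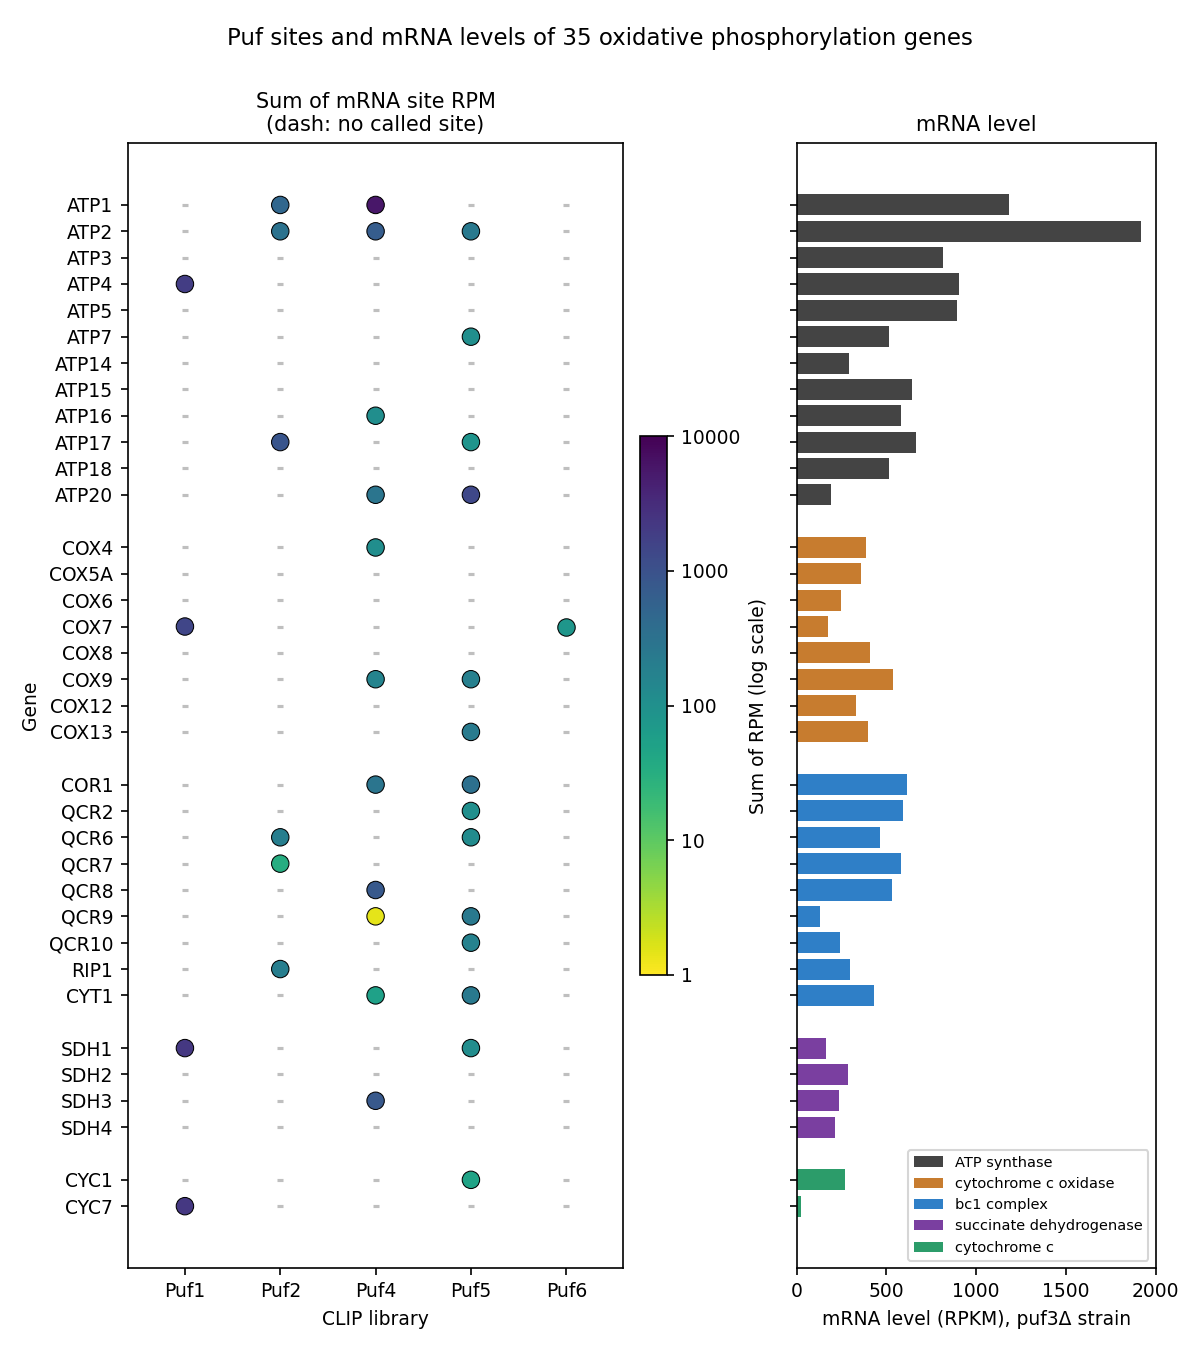
Left, sum of site RPM (colour, log scale) of each of the 35 genes (rows, by complex) in each CLIP library (columns), with a dash where no site was called. Right, mRNA level in RPKM in the puf3Δ strain, coloured by complex. Every bc1 gene has at least 1 circle, Puf4 and Puf5 hold most circles, and CYC7 has the shortest bar with 23.9 RPKM.

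Abundant mRNAs were called bound more often in general, so the same count was made among abundant genes, with limits chosen after the data were seen. Among genes of at least 200 RPKM, Puf4 had sites in 9 of 30 members (30.0%, 14.7 to 49.4), against 52.4% of all 945 genes at that level. Puf5 had 11 (36.7%, 19.9 to 56.1), against 52.2%, and Puf2 had 6 (20.0%, 7.71 to 38.6), against 35.9%. Puf1 had 1 (3.33%, 0.0844 to 17.2), against 20.0%, and Puf6 had 0 (upper bound 11.6%), against 16.8%. At this level the members' share was thus below that of all genes in each library, with the interval wholly below it in Puf1, Puf4 and Puf6. Among genes of at least 500 RPKM, Puf4 had sites in 6 of 15 members (40.0%), against 71.6% of 388 genes, and Puf5 also in 6 (40.0%), against 67.5%. Puf2 had 4 (26.7%), against 58.8%, Puf1 had 1 (6.67%), against 35.1%, and Puf6 had 0, against 25.8%. The upper bounds of these intervals were 67.7% for Puf4 and Puf5, 55.1% for Puf2, 31.9% for Puf1 and 21.8% for Puf6. The interval thus lay wholly below the share of all genes in each library but Puf5. With any of the 5 proteins, 19 of 30 members of at least 200 RPKM had a site (63.3%, 43.9 to 80.1), against 80.1%, and 11 of 15 of at least 500 RPKM (73.3%, 44.9 to 92.2), against 94.3%.

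Cytosolic ribosomal protein genes make up part of the abundant genes, and the members are shorter than most genes. Both points were followed at the limit of 200 RPKM, and not at 500 RPKM. Without ribosomal protein genes, the share of all genes of at least 200 RPKM was 47.9% for Puf5 and 47.3% for Puf4. It was 31.3% for Puf2, 16.5% for Puf1 and 15.0% for Puf6, and the members' interval then lay below it in Puf6 alone. When genes were also limited to at most 600 nt, 5 of 20 members (25.0%, 8.66 to 49.1) had a Puf4 site, against 35.1% of 185 genes. For Puf5 this was 7 of 20 (interval 15.4 to 59.2), against 48.1%, and for Puf2 3 of 20 (15.0%, 3.21 to 37.9), against 28.6%. Puf1 had 0 of 20 (upper bound 16.8%), against 14.1%, and Puf6 had 0 of 20, against 8.11%. The members' share was lower in all 5 libraries there too, and each interval contained the share of all genes. Among genes over 600 nt, 4 of 10 members had a Puf4 site, against 50.9% of 629 genes, and 4 had a Puf5 site, against 47.9%. Puf2 had 3 there, against 32.1%, Puf1 had 1, against 17.2%, and Puf6 had 0, against 17.0%. With any protein, 12 of the 20 shorter members had a site, against 73.5%, and 7 of the 10 longer ones, against 78.5%, where all genes of at least 200 RPKM without ribosomal protein genes had 77.4%. No test of the difference was made.

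**Figure D2:**
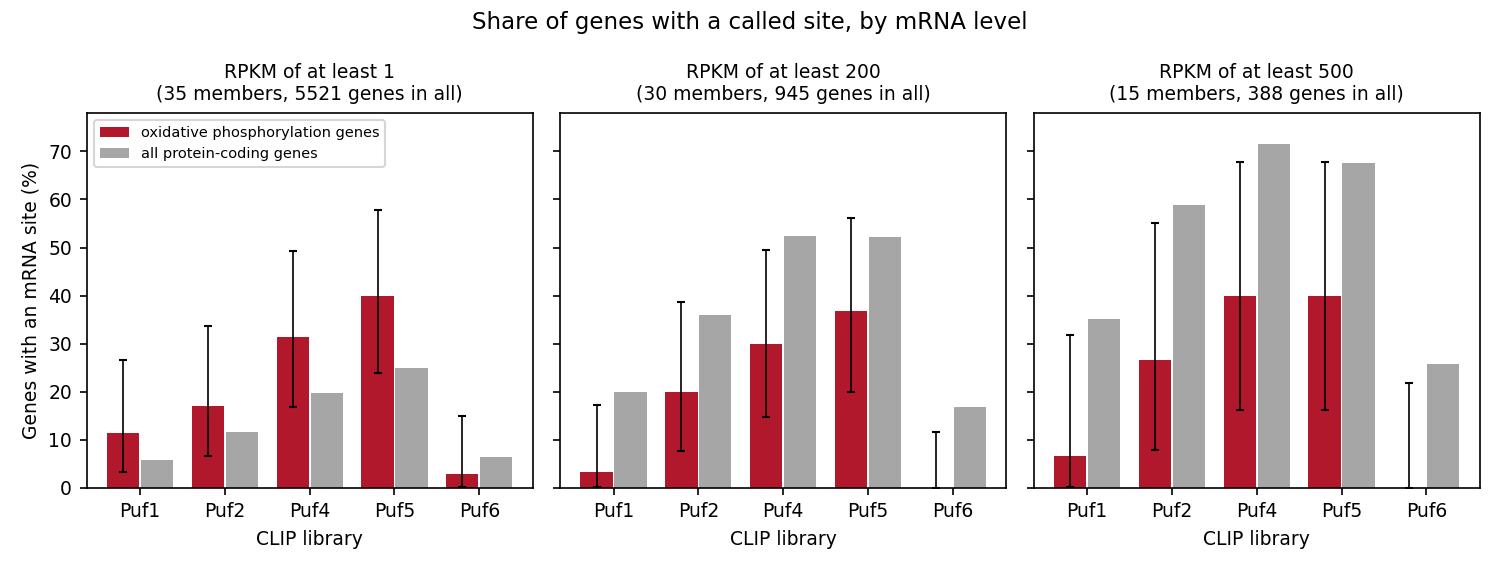
Share of genes with at least 1 mRNA site in each CLIP library, for members (red, with exact 95% intervals) and for all protein-coding genes (grey), at 3 minimum mRNA levels. In the left panel the red bars of Puf1, Puf2, Puf4 and Puf5 are the higher ones, and at 200 and 500 RPKM the grey bars are higher in all 5 libraries.

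Across the 35 genes, the number of proteins with a site did not follow the mRNA level. Spearman's rho between RPKM and the number of proteins with a site was 0.04 across the 35 genes, 0.53 across the 945 genes of at least 200 RPKM and 0.45 across the whole background, given as descriptions of genes that share the same libraries. All of the 35 genes but CYC7 lay between 131 and 1920 RPKM, against 1 to 24820 RPKM in the background. None had sites of more than 3 proteins. The part of these narrower ranges in the lower rho was not tested. The 24 genes with a site had a median of 447 RPKM, and the 11 without one 361 RPKM. ATP5, the stalk subunit known as OSCP, had 893.5 RPKM and no site, and ATP3, the central stalk subunit gamma, had 814 RPKM and no site. The others without a site were ATP14, ATP15 and ATP18 of ATP synthase, COX5A, COX6, COX8 and COX12 of cytochrome c oxidase, and SDH2 and SDH4 of succinate dehydrogenase.

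ATP synthase held 22 of the 53 sites, in 7 of its 12 genes (58.3%), at a median of 652 RPKM. Of all genes, 80.1% of those of at least 200 RPKM and 94.3% of those of at least 500 RPKM had a site. Of the 12, ATP20 lies below 200 RPKM, with 194.1 RPKM. Puf4 had a strong site in the 3' UTR of ATP1 (YBL099W), with 5670.60 RPM (counting interval 5620 to 5720), on the plus strand of chromosome II at 38851 to 38875 of sacCer3. It began 161 nt past the coding end and ranked 7 of 1792 mRNA sites in that library. ATP1 also had a coding Puf4 site of 149.31 RPM close to the stop codon. In Puf2, ATP1 had 301.30 RPM in the 5' UTR, 233 nt before the start codon, and coding sites of 121.11 and 61.70 RPM. Puf1, Puf5 and Puf6 had no site in ATP1.

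ATP2 (YJR121W, chromosome X) was the only one of the 35 genes with sites of 3 proteins. Puf4 had 463.58 and 121.65 RPM in its 3' UTR and 93.74 RPM in its coding sequence. Puf5 had 133.43 RPM in the 3' UTR and coding sites of 61.15 and 48.64 RPM, and Puf2 had coding sites of 155.90 and 154.92 RPM. None of these overlapped between proteins. The Puf5 site in the 3' UTR (649357 to 649387) lay between the Puf4 sites (649312 to 649344 and 649407 to 649424), with gaps of 12 and 19 nt. A coding Puf4 site began 14 nt after a coding Puf2 site had ended.

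ATP20 (YPR020W), subunit g of the membrane part, gave the strongest Puf5 site of the 35 genes, 1351.81 RPM at 599636 to 599657 on chromosome XVI, rank 63 of 2264. Puf4 had 279.27 RPM at 599640 to 599657, with the same end. The authors classed both as 5' UTR of ATP20. They ended 213 nt before its start codon and began 85 and 89 nt past the coding end of MCM4, a subunit gene of the replicative helicase that lies upstream on the same strand. Sites classed as MCM4 3' UTR lay close by, with 2263.12 RPM in Puf1 and 134.60 RPM in Puf5 up to position 599607. From the files alone, which of these transcripts the ATP20 sites belong to cannot be told apart. Without ATP20, Puf4 had sites in 10 members and Puf5 in 13.

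ATP17 (YDR377W), subunit f, had the strongest Puf2 site of the 35 genes, 752.93 RPM, 22 nt past its coding end, and a coding Puf2 site of 115.53 RPM. Puf5 had 48.12 and 36.92 RPM further down the same 3' UTR, 305 and 234 nt past the coding end. Puf1, Puf4 and Puf6 had no site in ATP17. ATP4, subunit b of the peripheral stalk, had a site in Puf1 alone, with 1919.43 RPM in the 3' UTR, 200 nt past the coding end. ATP7, subunit d, had a site in Puf5 alone (105.10 RPM, 3' UTR), and ATP16, subunit delta of the central stalk, in Puf4 alone (109.53 RPM, coding).

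All 9 bc1 genes had a site, with 20 sites in all. Their median level was 465 RPKM, and 80.1% of all genes of at least 200 RPKM had a site. Of the 9, QCR9 lies below that limit, with 131.1 RPKM. Puf5 bound 6 of the 9 (66.7%), against 52.2% of all genes of at least 200 RPKM. Puf4 bound 4 (44.4%), against 52.4%, and Puf2 bound 3 (33.3%), against 35.9%. Puf1 and Puf6 had no site in the complex, against 20.0% and 16.8%. COR1 (YBL045C), a core subunit, had 346.30 RPM in its 3' UTR in Puf5. In Puf4 it had 119.20 RPM in the 5' UTR and 117.73 and 42.83 RPM in the coding sequence, far from the Puf5 site. QCR2, the other core subunit, had a coding site of 105.88 RPM in Puf5. CYT1, cytochrome c1, had 115.26 RPM in the 5' UTR, 88.30 RPM in the coding sequence and 32.18 and 7.45 RPM in the 3' UTR in Puf5, and 52.62 RPM in the coding sequence in Puf4. With 4 sites, CYT1 had more Puf5 sites than any other member.

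The small bc1 subunits were each bound by 1 or 2 proteins. QCR8 had 795.24 RPM in Puf4, 14 nt past the coding end, the second strongest Puf4 site of the 35 genes. QCR6 had 204.81 RPM in Puf2, in the coding sequence, and 123.27 RPM in Puf5, in the 3' UTR. QCR9 had 139.34 RPM in the coding sequence and 101.58 RPM in the 3' UTR in Puf5, and 1.47 RPM in the 3' UTR in Puf4. That last site rests on about 12 reads (counting interval 0.759 to 2.57 RPM) and had the fewest reads of the 53. QCR10 had 3' UTR sites of 101.58 and 72.67 RPM in Puf5. QCR7 (32.17 RPM) and RIP1, the Rieske iron-sulphur protein (202.18 RPM), had coding sites in Puf2 alone.

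Cytochrome c oxidase had 6 sites in 4 of its 8 genes (50.0%), against 80.1% of all genes of at least 200 RPKM. It had none in Puf2, against 35.9% of those genes. Of the 8, COX7 lies below that limit of 200 RPKM, with 173.4 RPKM. COX7 (YMR256C, chromosome XIII, minus strand), subunit VII, had 1442.36 RPM in Puf1 and 79.43 RPM in Puf6. The Puf1 site, classed as 5' UTR, ran from 16 nt before the start codon into the codon itself, and the Puf6 site lay 50 nt further on, in the coding sequence. The Puf6 value was high for that library, rank 36 of 438 mRNA sites, although it rests on about 522 reads against about 8617 in Puf1. COX9, subunit VIIa, had 158.61 RPM in Puf4 at the start codon and 188.32 RPM in Puf5 in the 3' UTR. COX13, subunit VIa, had 225.24 RPM in Puf5 and COX4, subunit IV, had 108.19 RPM in Puf4, each in the 3' UTR.

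Succinate dehydrogenase had 3 sites in 2 of its 4 genes (50.0%), against the same 80.1%. SDH1 (YKL148C, chromosome XI, minus strand), the flavoprotein subunit, had 2232.95 RPM in Puf1 at 169075 to 169105 and 114.67 RPM in Puf5 at 169043 to 169072. Both are in the 3' UTR, and 2 nt separate them. SDH3, a membrane anchor subunit, had 785.69 RPM in Puf4 in the last bases of its coding sequence (180242 to 180261, gene end 180263). This was stronger than 96.0% of coding sites of that library. The near copies of these genes in the genome, YJL045W, SHH3 and SHH4, were low with 3.73, 1.02 and 21.0 RPKM and had no sites in any library. COX5B, the near copy of COX5A, had 152 RPKM and no sites.

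The cytochrome c genes differed in which protein bound them. CYC7 (YEL039C, chromosome V, minus strand) had 2275.87 RPM in Puf1, in the 3' UTR 59 nt past the coding end, and no site in the other libraries. It was the strongest Puf1 site of the 35 genes and ranked 60 of 435 mRNA sites in that library. CYC1, the main isoform in aerobic cells, had 268.6 RPKM and a single site of 47.28 RPM in Puf5. The gene that faces CYC7 from the other strand, UTR2, which encodes a cell wall enzyme, had a 3' UTR site of 337.96 RPM in Puf5 at 79554 to 79584, opposite to all 23 nt of the CYC7 site at 79555 to 79577. Further UTR2 sites at 79493 to 79524 had 1377.02 RPM in Puf4 and 1385.47 RPM in Puf5. The coding ends of the genes are 179 nt apart.

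The second question was where in the transcripts the sites lay. Of the 53 sites, 25 (47.2%) were in 3' UTRs, 21 (39.6%) in coding sequence and 7 (13.2%) in 5' UTRs. Puf5 had 15 of its 22 member sites in 3' UTRs (68.2%, 45.1 to 86.1), against 58.9% of its other mRNA sites. Puf2 had 8 of 10 in coding sequence (80.0%, 44.4 to 97.5), against 58.0% of the others. In Puf4, 7 of 16 were coding (43.8%, 19.8 to 70.1), against 65.5% of the others, and 3 were in 5' UTRs (18.8%, 4.05 to 45.6), against 4.39%. Puf1 had 3 of 4 in 3' UTRs. Each of these intervals contained the share of the library's other sites. The 3' UTR sites began between 2 nt (ATP7) and 305 nt (ATP17) past the coding end, with a median of 127 nt.

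By gene, a 3' UTR site was called in 12 of the 35 genes in Puf5 (34.3%, 19.1 to 52.2), against 17.3% of the background, and in 5 in Puf4 (14.3%, 4.81 to 30.3), against 8.35%. Puf1 had 3 such genes, against 2.70%, Puf2 had 1, against 4.64%, and Puf6 had 0, against 1.49%. A coding site was called in 6 genes in Puf2, against 7.63% of the background, and in 6 in Puf4, against 13.5%. Puf5 had 4, against 9.82%, Puf6 had 1, against 4.51%, and Puf1 had 0, against 3.17%. A 5' UTR site was called in 3 genes in Puf4 (8.57%, 1.8 to 23.1), against 1.29% of the background, and in 2 in Puf5, against 2.92%. Puf1 and Puf2 had 1 each, against 0.652% and 1.32%, and Puf6 had 0, against 0.58%. For 3' UTR sites of Puf5 and 5' UTR sites of Puf4 the background share lay below the members' interval, and for the other classes inside it. Shares by class were not counted among abundant genes. There, with sites of any class, the members' share was below that of all genes in each library. The 3 genes of that Puf4 class were COR1, COX9 and ATP20, whose site lies between 2 genes. Among genes bound by Puf5, 85.7% of members and 69.2% of the background had a 3' UTR site. Among those bound by Puf2, all 6 members and 421 of 648 background genes had a coding site.

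**Figure D3:**
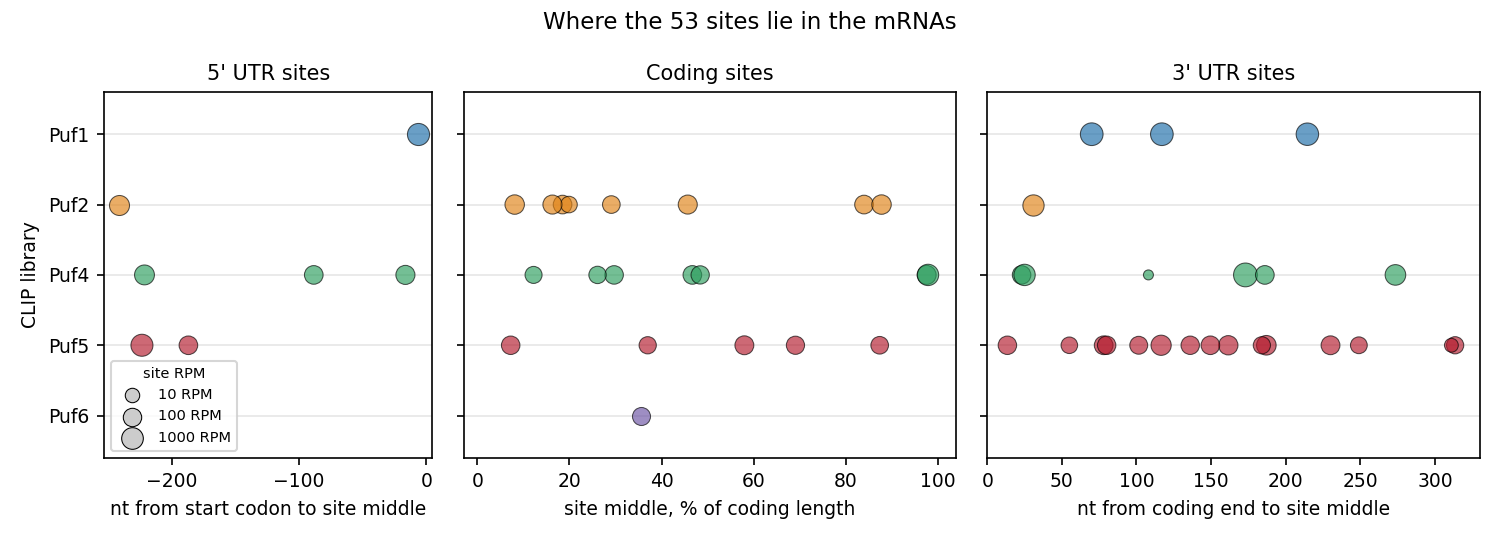
Positions of the 53 sites, by library (rows) and feature class (panels), with circle area growing with log RPM. Distances are in nt from the start codon (left) and from the coding end (right), and coding sites are placed by percent of coding length (middle). Puf5 circles spread along the 3' UTR panel, while all but 2 of the Puf2 circles are coding.

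Site strength was then set against the other sites of each library. The 2-fold range of RPM with the most sites was taken as the band of a library or feature class. Any list has such a range. It held between 28.1% (Puf4) and 51.8% (Puf5) of the mRNA sites of a library, with 29.7% in Puf2. The part of library preparation in these bands, and so in the ranks of sites, was not tested. Of the Puf1 mRNA sites, 40.5% lay between 1020 and 2040 RPM, and of the Puf5 sites 51.8% lay between 79.1 and 158 RPM. Puf4 coding sites were densest between 77.3 and 155 RPM (38.5% of them) and its 3' UTR sites between 514 and 1030 RPM (37.2%). In Puf2 the coding band ran from 106 to 211 RPM (35.6%) and the 3' UTR band from 459 to 917 RPM (52.6%). Across bound genes of the background, the sum of RPM and RPKM had a Spearman's rho between 0.07 (Puf6) and 0.28 (Puf4).

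Of the 53 member sites, 26 lay inside the 2-fold band of their own library and feature class, 20 below it and 7 above it. The share inside was 49.1% of member sites, against 44.8% of all mRNA sites. Those above it were in ATP1 and SDH3 for Puf4, in COR1, COX9, COX13 and ATP20 for Puf5 and in COX7 for Puf6. All 4 Puf1 sites were inside their bands. CYC7 and SDH1 nevertheless lay above the band of all Puf1 mRNA sites of any class, and CYC7, SDH1 and ATP4 were stronger than 78.9%, 77.3% and 70.6% of Puf1 3' UTR sites. The bands differ between libraries, and whether the RPM of 1 library is on the scale of another was not tested. The medians of member sites and of other mRNA sites were 2080 and 1220 RPM in Puf1, 155 and 206 RPM in Puf2, 120 and 126 RPM in Puf4, and 103 and 119 RPM in Puf5. These medians mix feature classes, and 45.5% of the other Puf1 sites but no Puf1 member sites were coding. By class, 3' UTR medians were 2230 and 1510 RPM in Puf1, 293 and 626 RPM in Puf4 and 102 and 128 RPM in Puf5. Coding medians were 138 and 137 RPM in Puf2, 110 and 101 RPM in Puf4 and 88.3 and 109 RPM in Puf5. In sum, members held 1.21% of the mRNA site RPM of Puf1 and 1.20% of that of Puf4, 0.589% for Puf5, 0.395% for Puf2 and 0.175% for Puf6. The Puf1 share rests on 4 sites. Of the 9069.3 RPM of Puf4 members, 5670.6 RPM came from the 1 site in the ATP1 3' UTR. The members' share of the mRNA reads, as RPKM times length, was 1.07%.

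**Figure D4:**
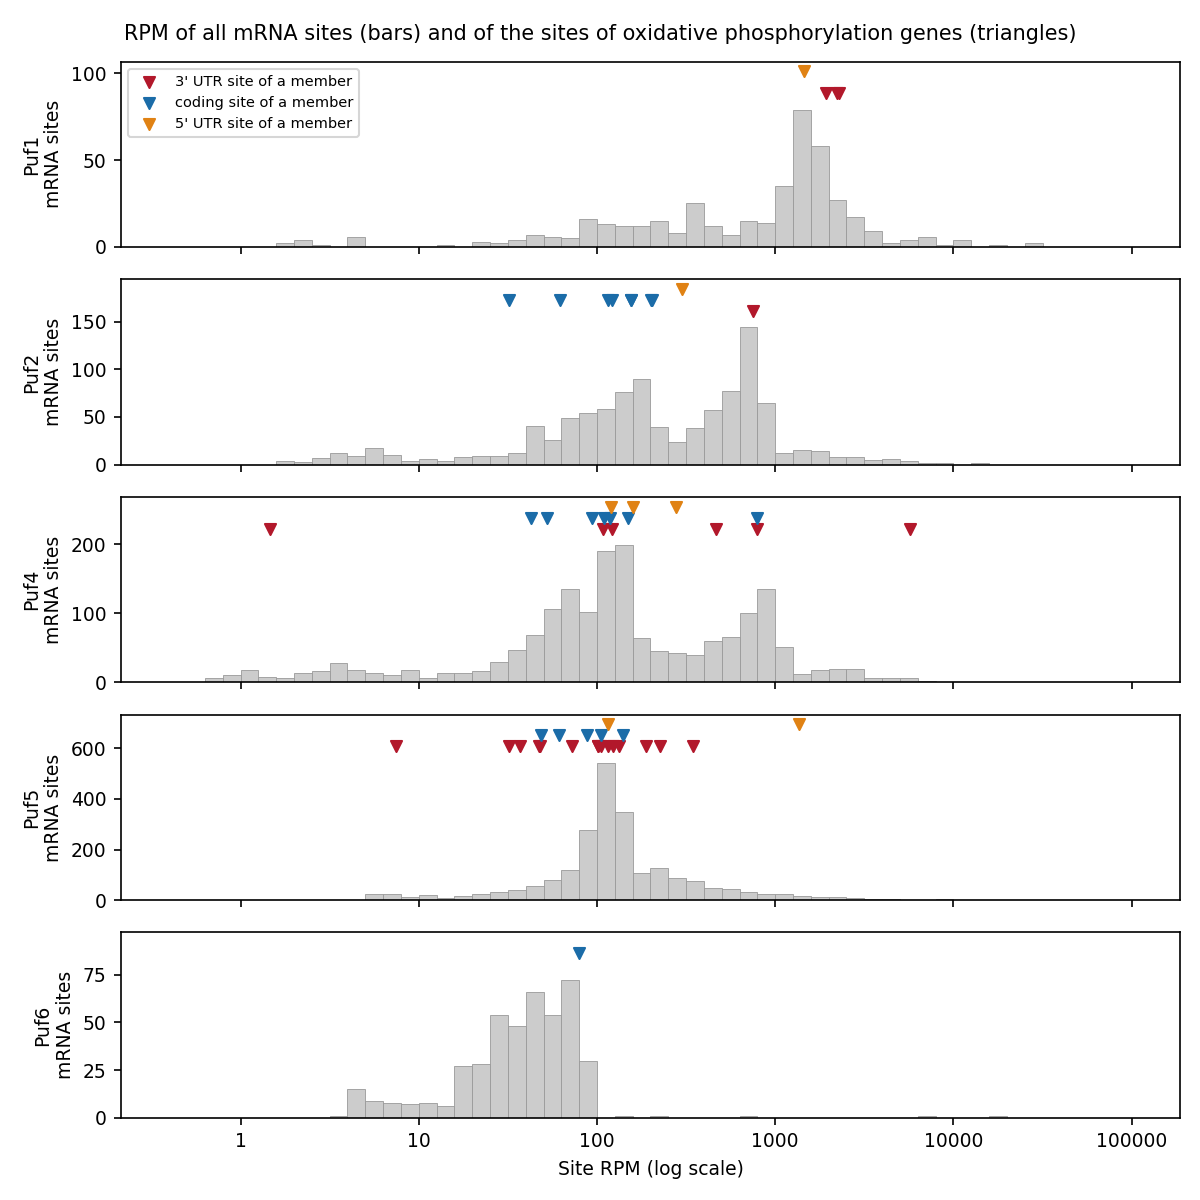
Number of mRNA sites per bin of RPM (grey bars, log scale) in each library, with the sites of the 35 genes as triangles coloured by feature class. Of the 53 triangles, 26 lie inside the 2-fold band of their library and class, and the Puf4 triangle at the far right is the ATP1 site of 5670.60 RPM.

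**Figure D5:**
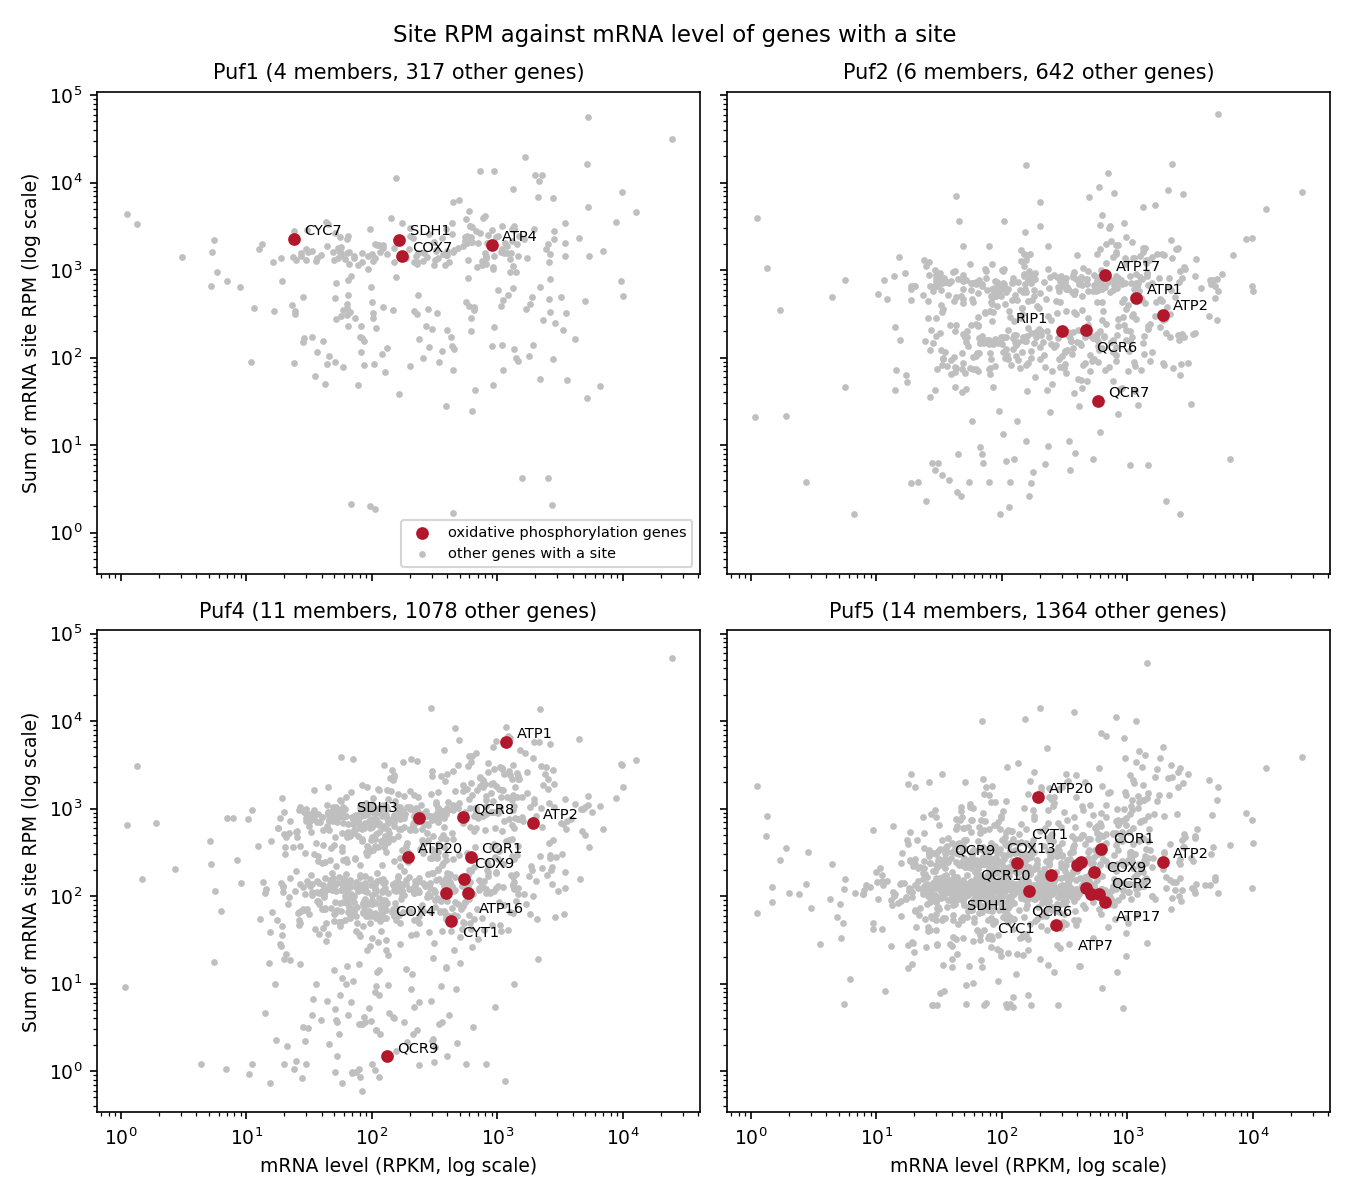
Sum of mRNA site RPM against mRNA level, both on log scales, for members (red, named) and other genes with a site (grey) in 4 libraries. CYC7 stands at the left of the Puf1 panel, and ATP1 near the top of the Puf4 panel.

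The third question was whether proteins shared genes and positions. Puf4 and Puf5 shared 6 genes (ATP2, ATP20, COX9, COR1, QCR9 and CYT1), which are 54.5% of the Puf4 members and 42.9% of the Puf5 members, against 47.8% and 37.8% for all genes. Puf2 and Puf5 shared ATP2, ATP17 and QCR6, Puf2 and Puf4 shared ATP1 and ATP2, Puf1 and Puf5 shared SDH1, and Puf1 and Puf6 shared COX7. Puf2 thus shared 21.4% of the Puf5 members, against 25.7% for all genes, and 18.2% of the Puf4 members, against 29.1%. Puf1 shared 7.14% of the Puf5 members, against 13.1%, and the 1 Puf6 member, against 22.0%. The other 5 pairs of proteins shared none. For all genes, Puf1 shared 20.7% of Puf2 genes and 15.6% of Puf4 genes. Of Puf6 genes, Puf2 shared 35.4%, Puf4 49.7% and Puf5 53.1%. With 4 members in Puf1 and 1 in Puf6, these absences cannot be judged against such shares. Sites of different proteins overlapped on the same strand in 2 cases, by 18 nt in ATP20 and by 3 nt in QCR9, both between Puf4 and Puf5. With an overlap of 50% of both sites required, ATP20 alone remained. RNase T1, which cuts after G, was used in all 5 CLIP experiments, and its part in equal ends was not tested.

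Other genes of the pathway were compared as lists chosen by name, 97 of whose genes are in the background. Puf5 had sites in 35 of the 97 (36.1%), Puf4 in 20 (20.6%), Puf2 in 11 (11.3%), Puf1 in 7 (7.22%) and Puf6 in 3 (3.09%), against the background shares given above. Citrate cycle genes, with a median of 356 RPKM, had sites in 8 of 14 cases in Puf5 (57.1%) and 6 in Puf4 (42.9%), against 52.2% and 52.4% of all genes of at least 200 RPKM. The citrate synthase gene CIT1 had 2042.5 RPM in the 3' UTR in Puf4. Of 6 genes for other respiratory dehydrogenases, 4 had a Puf4 site (66.7%), against 19.7% of the background. Among them were the internal and external NADH dehydrogenases NDI1 (1321.7 RPM) and NDE1 (687.6 RPM). Another was CYB2 (430.0 RPM), a lactate dehydrogenase that passes electrons to cytochrome c. Oxidase assembly factors had Puf5 sites in 12 of 29 cases (41.4%), against 25.0% of the background, with PET117 at 3013.5 RPM. Puf4 had sites in 4 of them (13.8%), against 19.7%, with COX14 at 848.8 RPM and OXA1, the membrane insertase, at 693.7 RPM.

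Assembly factors of the other complexes had sites in 8 of 21 cases with any protein (38.1%), against 42.1% of the background. SDH5 (1227.8 RPM) and SDH8 (1268.1 RPM), which serve the assembly of succinate dehydrogenase, had 3' UTR sites in Puf1, and SDH5 also had 149.0 RPM in Puf5. Of 6 genes for carriers and the outer membrane channel, 4 had sites (66.7%), at a median of 432 RPKM for the list. Of all genes of at least 200 RPKM, 80.1% had a site. In Puf4, the ADP/ATP carrier PET9 had 1345.2 RPM and the phosphate carrier MIR1 had 1013.2 RPM. The remaining subunits and regulators of the complexes had a median of 292 RPKM. They had sites in 4 of 11 cases (36.4%), against 42.1% of the background and 80.1% of all genes of at least 200 RPKM. Among them was the ATP synthase inhibitor INH1 with 661.4 RPM in Puf2. Ubiquinone synthesis genes had sites in 3 of 10 cases (30.0%), against the same 42.1%, with CAT5 at 805.4 RPM in Puf2. No list was tested against the 35 genes or the background.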

How the data were processed

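For each CLIP library the authors deposited the called sites with coordinates, gene, transcript region and RPM, read counts scaled to library size. They deposited 1 RPKM column for 2 mRNA-seq samples, and how it was joined is not stated. CASAVA 1.8.2, Bowtie 0.12.7 and sacCer3 are named for the CLIP samples and Bowtie 0.12.7 and sacCer3 for mRNA-seq, per the submitters' processing notes. The sources used here do not give the site caller, its threshold, the UTR annotation or the reads behind the RPM divisor. Positions are printed as deposited and are good to 1 nt, since their origin of counting was not given.

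Sites were joined to genes by the deposited name. Symbols and coding bounds came from a RefSeq table of the same assembly, which matched 5893 of 6550 genes by locus tag. The background was protein-coding genes of at least 1 RPKM. The value of 1 read was found as the step whose whole multiples held most RPM values of mRNA sites, tested on simulated data. Shares have exact Clopper-Pearson 95% intervals that take genes as independent, and site RPM has exact Poisson intervals. Python 3.11.15, pandas 2.3.3 and scipy 1.17.1 were used. With 1 library per protein no test was made. The genes and lists were chosen with earlier results of these data known. All 35 genes could be named, with every library for genes in at least 2 libraries and the 5 strongest of each library, and up to 3 of the strongest of each other list. Sequences of sites were not used here. Alternatives were the site class, stronger sites, equal list lengths, RefSeq bounds, RPKM limits, overlap and pseudocount.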

Additional observations from a re-analysis of the deposited data

How the results depend on the processing

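The counts of bound genes depended on which sites were used, listed here against 14 genes in Puf5, 11 in Puf4, 6 in Puf2, 4 in Puf1 and 1 in Puf6. With 3' UTR sites alone, Puf2 had 1, Puf4 had 5 and Puf6 had 0. With coding sites alone, Puf1 had 0, Puf4 had 6 and Puf5 had 4. With the 50% of sites of highest RPM, Puf5 had 9. With the 899 strongest sites of each library, Puf4 had 6 and Puf5 had 4, beside 5 in Puf2 and 4 in Puf1. Overlap with RefSeq bounds, which hold no UTRs, gave 1 in Puf1, 7 in Puf4 and 4 in Puf5. Summing the strongest site of each gene in place of all sites gave 1649.3 RPM for Puf2 (2102.6 with all), 8544.0 for Puf4 (9069.3) and 3145.6 for Puf5 (3594.5). These sums changed, though each by less than 1.5 times. Of overlapping site pairs, 1 of 2 remained when 50% of both sites had to be shared. The other 26 planned values stayed within 1.5 times, including background shares with no RPKM limit or a minimum of 10, and the median level (log2 difference 2.74 with pseudocount 1, 2.75 with 0.1). The 10 counts without ATP20 or with sites of at least 5 RPM, chosen after the data were seen, also stayed within 1.5 times. Leaving out replicates was not possible with 1 library per protein and 1 joined mRNA column. No paired analysis was possible because the mRNA-seq replicates share 1 column and no compared groups share numbers that pair them.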
